A study of Neurospora crassa with 11 samples.

Results

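The genes described here are the 3 that encode the core of cytosolic fatty acid synthesis in the filamentous fungus Neurospora crassa, out of 9758 genes counted. They are cel-1 (NCU07308) and cel-2 (NCU07307), which encode the alpha and beta subunits of fatty acid synthase, and NCU08535, which encodes acetyl-CoA carboxylase. They were picked by name after cel-1 had stood out as much lower in a strain with the A828V form of the transcription factor XLR-1 without carbon than in the same strain on sucrose. Differences that involve those libraries without carbon are therefore given as descriptions for these 3 genes, with no edgeR p. RNA-seq was done on whole fungus in 11 libraries of 4 groups. After 16 h of growth on sucrose in Vogel's medium, a defined mix of salts, the mycelium was washed and placed in fresh medium that held xylan, sucrose or no carbon source. Xylan is a hemicellulose polymer of plant cell walls with a backbone of xylose.

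Both A828V groups carried the allele xlr-1-A828V at his-3 behind the ccg-1 promoter together with the deletion of their own xlr-1 marked by HygR, a hygromycin resistance gene, and their genotype label ends in mat a. They were 3 libraries without carbon and 1 library on sucrose. The xlr-1 deletion strain, deltaxlr-1::HygR, gave 4 libraries on xylan, and the wild type FGSC2489 (strain OR74A) gave 3 libraries on xylan. All strains were built in the FGSC2489 background, per the labels. The allele is thus expressed from another promoter and another locus than in wild type. Nothing in the labels ties the libraries of a group to cultures of their own. The spread behind the p-values is therefore that of these libraries and may be technical. A 5th condition, wild type without carbon, was read only as mean values in the authors' deposited comparison tables.

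Fungal fatty acid synthase is a large complex of alpha and beta chains that builds palmitate and stearate from acetyl-CoA and malonyl-CoA, with NADPH as the reductant. The beta chain carries the loading, enoyl reductase, dehydratase and malonyl and palmitoyl transferase activities, and the alpha chain carries the acyl carrier, ketoacyl reductase and ketoacyl synthase domains. Acetyl-CoA carboxylase, a biotin enzyme, makes the malonyl-CoA and is the committed step of the pathway. In yeast, from which most of the regulation is known, the synthase subunits are made in matched amounts. In Neurospora, cel mutants were isolated as strains that need saturated fatty acids to grow.

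Libraries held 10317390 to 18927605 reads counted in genes. The transcript of xlr-1 (NCU06971), the targeted gene, stood at 11.8, 9.79, 3.28 and 5.62 CPM (read counts scaled to library size with TMM factors) in the deletion libraries, against 136, 158 and 112 CPM in the wild-type libraries on xylan. In A828V it stood at 109, 129 and 115 CPM without carbon and at 199 CPM on sucrose. matA-1 (NCU01958), a gene of the mating type A idiomorph, had 0 reads in each of the 4 deletion libraries and 125, 93 and 91 reads in wild type. A828V had 143, 130 and 107 reads of it without carbon, although its label reads mat a, and 12 reads on sucrose. The deletion of xlr-1 and the absence of mating type A reads coincide in every library on xylan, so their parts in a difference between these strains cannot be told apart. Fewer cells of a type and less RNA per cell also cannot be told apart in RNA from whole mycelium.

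cel-1 and cel-2 lie side by side on chromosome IV. cel-1 spans 4422480 to 4429129 (6650 bp) and cel-2 spans 4431604 to 4439201 (7598 bp), in the coordinates of the deposited tables, whose contigs are named as in assembly NC12. The 2474 bp between them, from 4429130 to 4431603, hold 0 genes of the RefSeq annotation. NCU08535 lies on chromosome III, 5005328 to 5013687 (8360 bp). Each of the 3 loci overlaps 0 other RefSeq genes, so no annotated neighbour shares their reads.

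Both synthase genes were at their lowest in the A828V strain without carbon, stood near their highest level in the same strain on sucrose, and lay between these levels in most libraries on xylan. cel-1, the alpha subunit gene, had 5.02, 6.70 and 5.19 CPM in the 3 A828V libraries without carbon, from 100, 140 and 83 reads. In the deletion libraries on xylan it had 62.6, 40.1, 82.8 and 63.8 CPM. It had 647, 230.3 and 127 CPM in wild-type libraries 1, 2 and 3 on xylan, and 604 CPM in the A828V library on sucrose. The groups formed 3 separate ranges in the order A828V without carbon, deletion on xylan and wild type on xylan, while the sucrose library fell within the wild-type range. Group means were 5.64 ± 0.923 CPM (SD, n = 3) in A828V without carbon, 62.3 ± 17.5 CPM (SD, n = 4) in the deletion strain and 335 ± 275.5 CPM (SD, n = 3) in wild type.

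cel-2, the beta subunit gene, followed the same order. It had 10.8, 14.1 and 12.8 CPM in the A828V libraries without carbon, from 216, 294 and 205 reads. It had 81.2, 45.7, 96.7 and 67.8 CPM in the deletion libraries. It had 770.0, 257 and 129.8 CPM in wild-type libraries 1, 2 and 3, and 774 CPM in the A828V library on sucrose. No library of one group reached into the range of another, but the sucrose library and wild-type library 1 were nearly level. Within the wild type the highest library was 5.93 times the lowest for cel-2 and 5.11 times for cel-1, against 2.12 and 2.07 times in the deletion strain and 1.298 and 1.335 times in A828V without carbon.

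The carboxylase gene NCU08535 was less far apart between the groups. It had 37.6, 33.3 and 45.7 CPM in the A828V libraries without carbon and 103 CPM, 28.9, 35.6 and 55.9 CPM in deletion libraries 1, 2, 3 and 4. It had 459.7, 74.6 and 41.9 CPM in wild-type libraries 1, 2 and 3, and 298 CPM in the A828V library on sucrose. The first 3 groups overlapped, with wild-type library 1 and deletion library 1 above the other libraries of these groups. The wild-type mean of 192 ± 232 CPM (SD, n = 3) therefore rests on library 1.

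**Figure D1:**
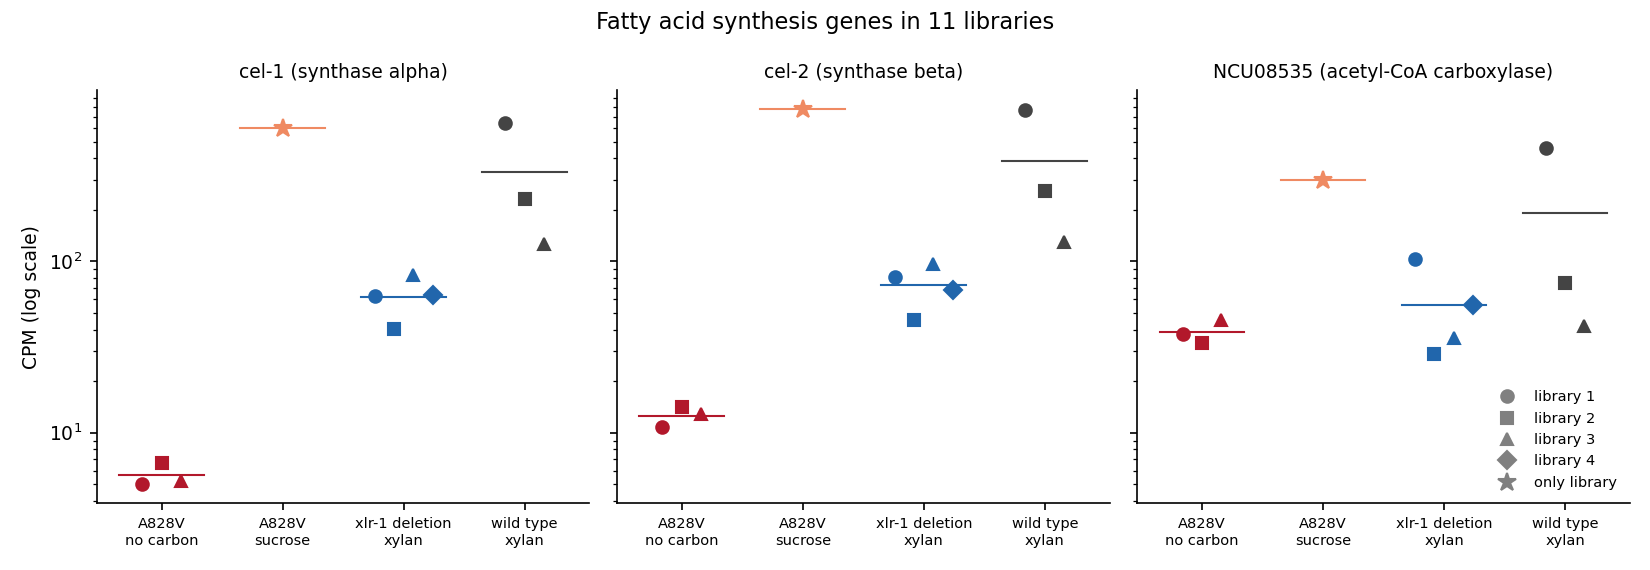
Normalised read counts (CPM, log scale) of cel-1, cel-2 and NCU08535 in each of the 11 libraries, with a horizontal line at each group's mean and a marker shape for each library number. cel-1 lies at 5.02 to 6.70 CPM in A828V without carbon, at 40.1 to 82.8 CPM in the deletion strain on xylan and at 127 to 647 CPM in wild type on xylan, whereas NCU08535 overlaps across these 3 groups.

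The deposited FPKM values, which take account of transcript length as well as library size, allow the 3 genes to be set side by side within a library. In A828V without carbon, cel-1 was at 0.959, 1.23 and 0.995 FPKM and cel-2 at 1.89, 2.38 and 2.19 FPKM, while NCU08535 was at 6.80, 5.43 and 7.63 FPKM. The carboxylase gene was thus the highest of the 3 there. On sucrose the same strain had 73.5 FPKM of cel-1, 86.5 FPKM of cel-2 and 29.1 FPKM of NCU08535, with the carboxylase gene lowest. The ratio of NCU08535 to cel-2 was 3.59, 2.28 and 3.48 in the A828V libraries without carbon, 1.12, 0.62, 0.346 and 0.774 in deletion libraries 1 to 4, 0.517, 0.288 and 0.313 in the wild-type libraries and 0.337 on sucrose. Every A828V library without carbon lay above every library with a carbon source. Wild type without carbon did not share this order of the genes. Its means in the authors' deposited table were 6.69 FPKM for NCU08535 and 11.4 FPKM for cel-2, with the carboxylase gene below cel-2. By rank, cel-1 stood at the 15.4th to 16.6th percentile of all genes in the A828V libraries without carbon, at the 38.8th to 52.2nd in the deletion libraries, at the 64.4th to 90.1st in the wild-type libraries and at the 89.2nd on sucrose.

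The synthase subunit genes stood close to a matched level per length in the libraries with a carbon source, and not in those without. Without carbon the FPKM ratio of cel-1 to cel-2 was 0.506, 0.516 and 0.454 in the A828V libraries. It was 0.853 to 1.04 in the deletion libraries, 0.93 to 1.09 in the wild-type libraries and 0.849 in the A828V library on sucrose. The ranges with and without carbon did not overlap. The authors' deposited tables gave mean ratios of 0.503 for A828V without carbon, 0.964 for wild type on xylan and 0.595 for wild type without carbon, so a ratio well below 1 was also found in the wild type in that medium. These ratios have no test, since the low cel-1 level helped to choose the genes.

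**Figure D2:**
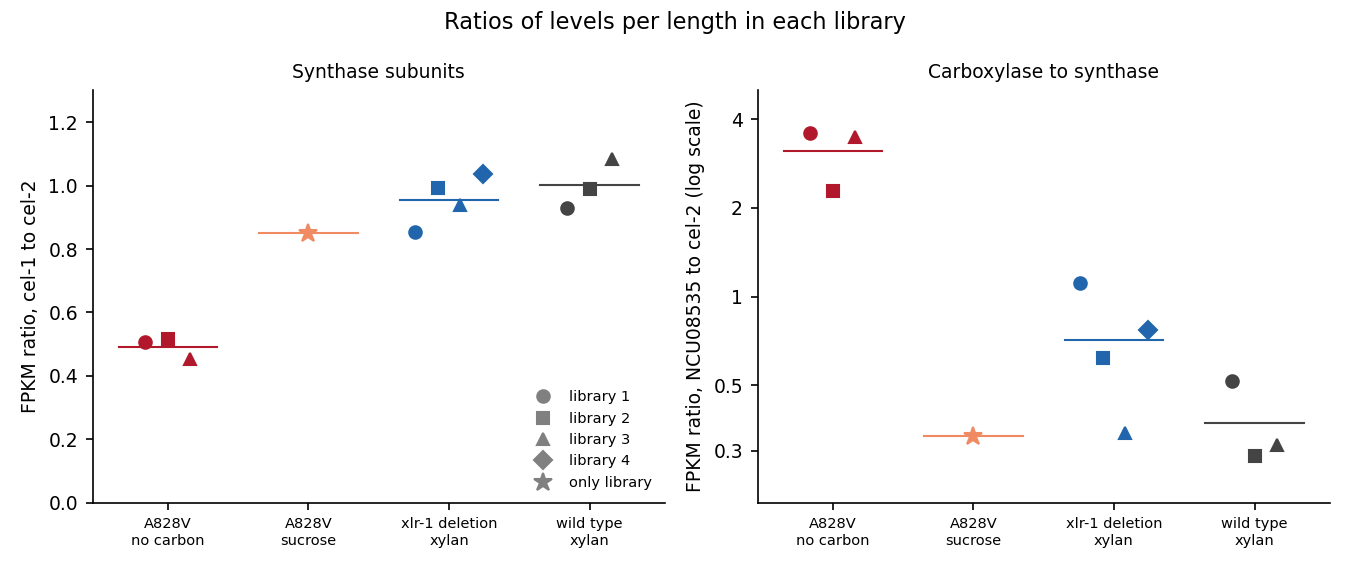
Ratio of the deposited FPKM values of cel-1 to cel-2 (left) and of NCU08535 to cel-2 (right, log scale) in each library, with a line at each group's mean. In A828V without carbon the subunit ratio is 0.454 to 0.516 and the carboxylase ratio 2.28 to 3.59. Libraries with a carbon source have 0.849 to 1.09 and 0.288 to 1.12. Wild type without carbon has no library here and is not drawn.

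Within the A828V strain, the 2 media showed the widest separation of the synthase genes. The fitted log2 fold change of A828V without carbon over A828V on sucrose was -6.74 (SE 0.70, edgeR) for cel-1, a 107-fold lower level. It was -5.94 (SE 0.72) for cel-2, 61.5-fold lower, and -2.94 (SE 0.99) for NCU08535, 7.66-fold lower. Ordered by fold change, cel-1 was the 5th lowest, cel-2 the 11th and NCU08535 the 258th of 8557 genes tested. All 3 genes were lower in each of the 3 libraries without carbon than in the sucrose library, as were 41.3% of all genes tested. The medium with sucrose has only 1 library, which is assumed to vary like the other groups, so the standard errors rest on the spread of those groups.

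A828V without carbon and the wild type on xylan differ in strain and in medium, whose parts cannot be told apart. The log2 fold change of A828V without carbon over wild type on xylan was -5.89 (SE 0.62) for cel-1, -4.94 (SE 0.63) for cel-2 and -2.30 (SE 0.81) for NCU08535. For cel-1 and cel-2 every A828V library without carbon lay below every wild-type library, which held for 25.9% of all genes tested. Without wild-type library 1 the values were -4.98, -3.94 and -0.58, so most of the difference of the carboxylase gene rested on that library.

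The comparison on xylan set the deletion strain against wild type in the same medium. These strains differ in xlr-1 and in mating type A reads, whose parts cannot be told apart. The synthase genes were 5.37-fold lower (cel-1) and 5.29-fold lower (cel-2) in the deletion strain than in wild type. Every deletion library lay below every wild-type library for both, which held for 5.01% of the genes tested. The log2 fold changes of -2.42 for cel-1 (SE 0.48, adjusted p = 0.0595 by edgeR's quasi-likelihood F-test, Benjamini-Hochberg over all genes tested) and -2.40 for cel-2 (SE 0.51, adjusted p = 0.0801) missed the threshold of 0.05. NCU08535 had a log2 fold change of -1.78 (SE 0.72, adjusted p = 0.302, edgeR), with overlapping libraries. None of the 3 was thus called, where edgeR called 0.596% of all genes tested, 49 lower and 2 higher in the deletion strain.

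That outcome depends on the tool and on 1 library. DESeq2 called cel-1 (log2 fold change -2.43, adjusted p = 0.000147) and cel-2 (-2.42, adjusted p = 0.000447) and not NCU08535 (adjusted p = 0.137). It called 390 of all genes in either direction. Without wild-type library 3, edgeR also called cel-1 (-2.86, adjusted p = 0.0117) and cel-2 (-2.87, adjusted p = 0.0153). Without wild-type library 1 the differences were -1.52 for cel-1, -1.41 for cel-2 and -0.06 for NCU08535, and none was called. The main fit does not pair libraries of the same number. With that number as a block, edgeR gave -2.30 for cel-1 (adjusted p = 0.1392) and -2.22 for cel-2 (adjusted p = 0.1465). Over all alternatives the adjusted p lay between 0.000147 and 0.24 for cel-1, between 0.000447 and 0.288 for cel-2 and between 0.137 and 0.987 for NCU08535.

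**Figure D3:**
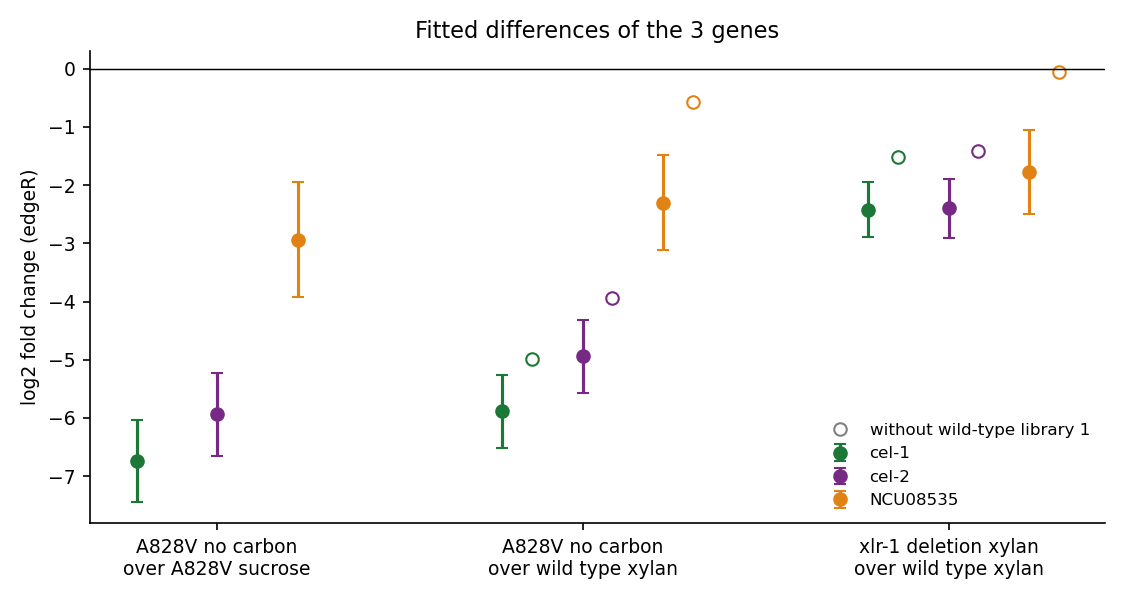
Fitted log2 fold changes (edgeR, filled points, bars of 1 standard error) of the 3 genes in the 3 comparisons, with open points for the fit without wild-type library 1. All filled points lie below 0, and without that library NCU08535 moves to -0.58 and -0.06.

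The authors' deposited comparison tables place wild type without carbon beside these groups. Wild type on xylan had mean values of 52.6 FPKM for cel-1 and 54.5 FPKM for cel-2, against 6.80 and 11.4 FPKM in wild type without carbon, in the authors' deposited table. Its adjusted p was 0.00572 for cel-1 (log2 fold change 2.95) and 0.0801 for cel-2 (2.26), so that only cel-1 passed 0.05, beside 5.91% of all genes called higher and 1.93% called lower on xylan. NCU08535 had means of 23.2 FPKM on xylan and 6.69 FPKM without carbon in the authors' deposited table (1.80, adjusted p = 0.161).

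In the same medium without carbon, the A828V strain had still less of both synthase transcripts than wild type. A828V had means of 1.003 FPKM for cel-1 and 1.995 FPKM for cel-2, against 7.82 and 13.1 FPKM in wild type, in the authors' deposited table. Its log2 fold changes were -2.96 for cel-1 (adjusted p = 2.09e-07) and -2.72 for cel-2 (adjusted p = 6.38e-09), where 1.57% of all genes were called lower and 2.94% higher. NCU08535 had means of 5.85 FPKM in A828V and 7.69 FPKM in wild type in the authors' deposited table (-0.40, adjusted p = 0.913). The A828V libraries here are those in which cel-1 first stood out, so these calls are not independent evidence. Both tables share the wild type without carbon, and each is normalised on its own, which is why its means differ between them.

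The enzyme upstream of the carboxylase is ATP citrate lyase, which makes cytosolic acetyl-CoA from citrate. Its gene NCU06783 had 1876 CPM in deletion library 1 and 72.0, 77.5 and 153 CPM in deletion libraries 2, 3 and 4, against 2101 CPM in wild-type library 1 and 65.5 and 122 CPM in wild-type libraries 2 and 3. NCU06785, named for subunit 1 of the enzyme, had 1779.7 CPM in deletion library 1 and 50.2 to 221 CPM in the others, against 1807 CPM in wild-type library 1 and 80.6 and 129.7 CPM in the others. In both strains library 1 thus stood far above the rest. NCU08535 was likewise highest in library 1 of each strain, whereas cel-1 and cel-2 were highest in library 1 of wild type and in library 3 of the deletion strain. In A828V the citrate lyase genes had 208 to 241 CPM (NCU06783) and 307 to 344 CPM (NCU06785) without carbon, against 1283 and 1189.5 CPM on sucrose. Neither gene was called in any of the 3 comparisons. When both xylan libraries numbered 1 were left out, the deletion strain differed from wild type by -1.52 for cel-1, -1.47 for cel-2 and -0.54 for NCU08535 on the log2 scale.

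**Figure D4:**
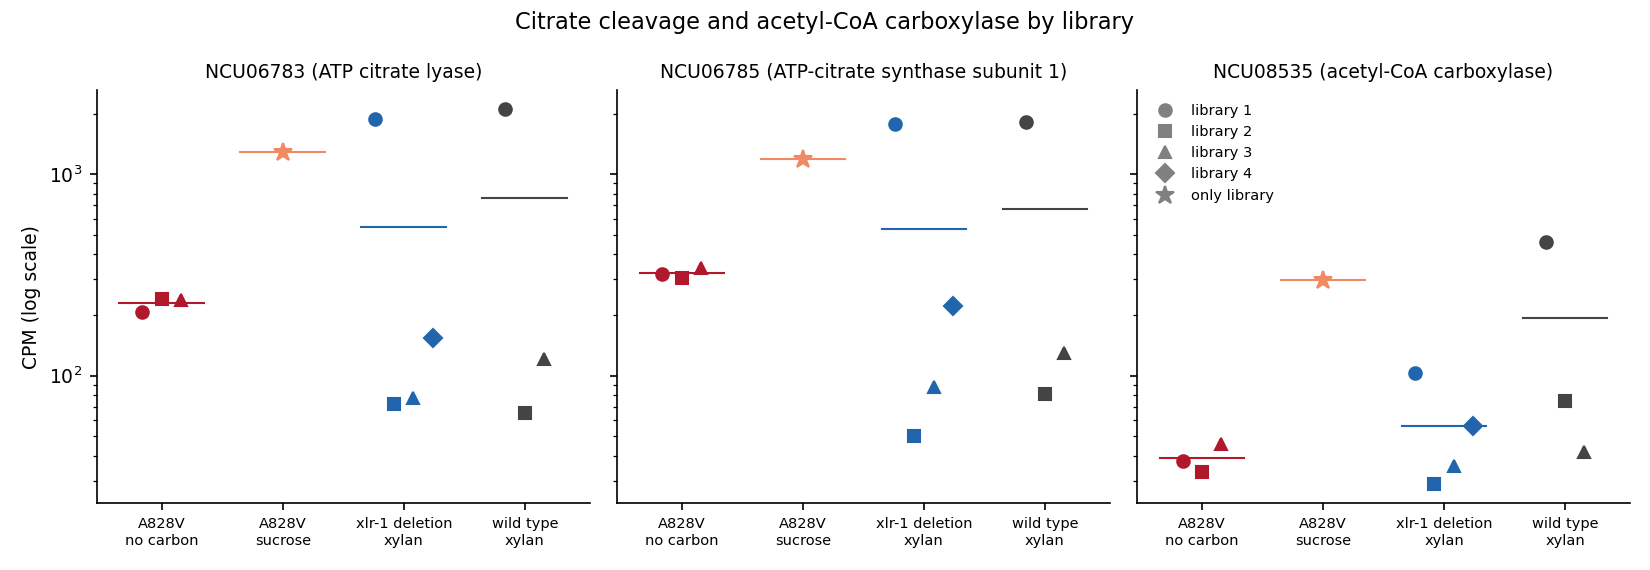
Normalised read counts (CPM, log scale) of the citrate lyase genes NCU06783 and NCU06785 and of the carboxylase gene NCU08535 in each library, with a line at each group's mean. Library 1 is highest in both strains on xylan for all 3 genes, at 1876 and 2101 CPM for NCU06783.

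Another 19 genes are named for other steps of fatty acid synthesis, and 18 of them were tested. In A828V without carbon 4 were lower and 2 higher than in A828V on sucrose, with a median log2 fold change of -1.20, against 0.11 over all genes, of which 10.4% were called lower and 8.39% higher. The 4 lower genes were 3 desaturases and an elongase. NCU05259, acyl-CoA desaturase 1, which puts the first double bond into stearate, had 49.3, 127 and 63.7 CPM in A828V without carbon and 4152 CPM on sucrose. The fitted difference was -5.70 on the log2 scale (SE 0.75, adjusted p = 0.00272, edgeR). ods (NCU02209), the delta-12 desaturase that makes linoleate, had 109, 144 and 94.0 CPM against 1543 CPM on sucrose (-3.74, SE 0.58, adjusted p = 0.00392, edgeR). NCU08976, a fatty acid elongase, was lower by the same test (-4.75, adjusted p = 0.00318), as was NCU09497, named as a D12/D15 desaturase (-4.44, adjusted p = 0.00459). The other desaturase and elongase of the list, NCU02408 (-1.38, adjusted p = 0.0997) and NCU06694 (-1.33, adjusted p = 0.381), did not pass.

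The higher genes were both named 3-oxoacyl-(acyl-carrier-protein) reductase, a product name carried by several short-chain dehydrogenases. NCU01092 averaged 68.2 CPM in A828V without carbon, against 6.86 CPM on sucrose and 11.2 CPM in wild type on xylan. It differed by 3.31 on the log2 scale over sucrose (SE 0.64, adjusted p = 0.00795, edgeR) and 2.60 over wild type on xylan (SE 0.38, adjusted p = 0.00307). NCU03332 passed over sucrose (1.84, SE 0.45, adjusted p = 0.0214, edgeR) and not over wild type. Whether its changes in the 2 comparisons differ was not tested.

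In A828V without carbon 5 of the 18 genes were lower and 1 higher than in wild type on xylan, with a median of -1.08 against -0.01 over all genes, of which 11.5% were called lower and 9.29% higher. The 5 were NCU08976 (-4.62, adjusted p = 0.00186), NCU05259 (-3.75, adjusted p = 0.00486), ods (-3.12, adjusted p = 0.00374), NCU09497 (-3.05, adjusted p = 0.0093) and NCU08943 (-5.76, SE 0.44, adjusted p = 0.00013), all by edgeR. NCU08943, another gene named for a 3-oxoacyl-ACP reductase, showed a pattern of its own. It had 14.0, 19.8 and 17.8 CPM in A828V without carbon and 25.7 CPM on sucrose. It had 367, 247, 512 and 200.4 CPM in the deletion strain on xylan, against 994, 1131 and 681 CPM in wild type on xylan. It was thus high in both strains on xylan and low in both other groups, unlike cel-1 and cel-2.

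In the deletion strain on xylan, 1 of the 18 genes was lower than in wild type on xylan and 0 were higher. The median was -0.41 against 0.05 over all genes, of which 0.573% were called lower and 0.0234% higher. At an unadjusted p under 0.05 there were 5 of the 18, and 1221 of all 8557 genes tested. DESeq2 called 4 of the 18 lower, where it called 390 of all genes in either direction. The called gene was ods, with 97.1, 156, 368 and 174 CPM in the deletion libraries, against 1371, 884 and 773 CPM in the wild-type libraries (-2.34, SE 0.42, adjusted p = 0.0408, edgeR). Its ranges did not overlap, but the call was lost in 12 of 19 alternatives, with adjusted p between 1.76e-05 and 0.178. Among these were the paired fit with the replicate number as a block (-2.43, adjusted p = 0.139, edgeR) and the fits without any 1 of the wild-type libraries, the A828V libraries without carbon or deletion libraries 2 and 4. NCU08976 had 76.3, 54.6, 48.8 and 26.4 CPM in the deletion libraries, against 621, 137 and 209 CPM in the wild-type libraries, without overlap (-2.64, adjusted p = 0.0552, edgeR). NCU05259 had 112, 158, 502 and 369.8 CPM in the deletion libraries, against 963, 861 and 1409 CPM in wild type (-1.92, adjusted p = 0.14, edgeR).

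In the authors' deposited table, 5 of the 19 genes were higher in wild type on xylan than in wild type without carbon. There 0 were lower, beside 5.91% of all genes called higher and 1.93% called lower. The 5 were ods (log2 fold change 3.91), NCU05259 (4.76), NCU08943 (5.46), NCU08976 (4.13) and NCU09497 (3.97). Between A828V and wild type, both without carbon, 0 of the 19 genes were called in the authors' deposited table. Of all genes 2.94% were called higher and 1.57% lower in A828V there. The 4 genes named as desaturases had log2 values of 0.67 (ods), 0.89 (NCU05259), 0.87 (NCU09497) and -0.39 (NCU02408) in the authors' deposited table. None of these passed 0.05, and whether they differ from the values of cel-1 and cel-2 was not tested.

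**Figure D5:**
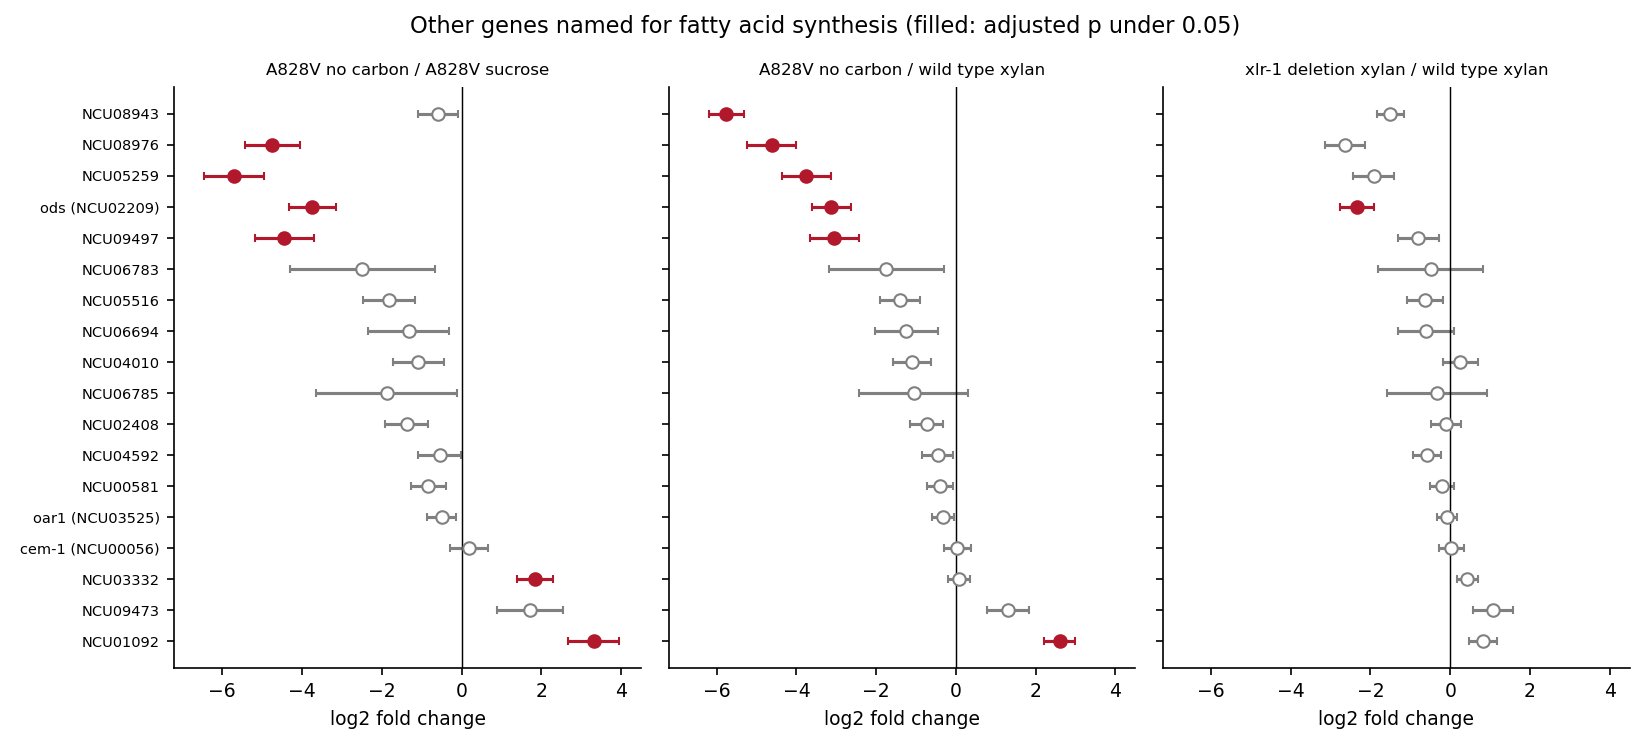
Log2 fold changes with bars of 1 standard error (edgeR) of the 18 tested genes named for other steps of fatty acid synthesis, in the 3 comparisons. Filled points passed an adjusted p of 0.05, and ods is the only filled point in the comparison of the deletion strain with wild type.

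Genes that supply acetyl-CoA and NADPH gave 3 of 8 lower and 0 higher in A828V without carbon, both against A828V on sucrose and against wild type on xylan. Over all genes 10.4% were lower and 8.39% higher than on sucrose, and 11.5% lower and 9.29% higher than in wild type on xylan. acu-5, acetyl-CoA synthetase, averaged 31.4 ± 11.5 CPM (SD, n = 3) without carbon against 649 CPM on sucrose (-4.37, adjusted p = 0.00329, edgeR). cit-1, the mitochondrial citrate synthase, averaged 72.8 ± 11.3 CPM (SD, n = 3) against 936 CPM on sucrose (-3.68, adjusted p = 0.00374, edgeR). The tricarboxylate transporter NCU05075 was the third (-2.18, adjusted p = 0.0337, edgeR). NCU05075 lost this call over sucrose without A828V library 1, 2 or 3 (-2.10, -2.32 and -2.13). It also lost it with limma on log2(FPKM + 1) or log2(FPKM + 0.1) (-1.40 and -1.46). Against wild type on xylan the same 3 genes had -3.31, -3.13 and -1.95. NCU05075 fell short of the threshold there without wild-type library 1 (-1.08, adjusted p = 0.0508, edgeR) and without A828V library 1, 2 or 3 (adjusted p = 0.0862, 0.0591 and 0.0865). Between the deletion strain and wild type 0 of the 8 genes passed the edgeR test. DESeq2 called 1 lower, beside 390 of all genes in either direction. Of the 8, 3 had an unadjusted p under 0.05, as had 1221 of all 8557 genes tested.

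Genes of fatty acid breakdown, which take fatty acids apart to acetyl-CoA, had few calls. Of 25 tested, 2 were higher and 3 lower in A828V without carbon than on sucrose, shares near those of all genes (8.39% higher and 10.4% lower), with a median of 0.65. These counts depend on the method and the libraries. With limma on log2(FPKM + 1), 7 were called higher and 0 lower, beside 1858 of all genes in either direction. Without A828V library 3, 0 were higher, beside 722 of all genes called in either direction. acd-2, an acyl-CoA dehydrogenase, was higher at 479 ± 21.5 CPM (SD, n = 3) without carbon against 66.7 CPM on sucrose (2.84, adjusted p = 0.0205, edgeR). The carnitine carrier NCU07263 (-2.70, adjusted p = 0.0279) and the acetyl-CoA acetyltransferase NCU02571 (-2.26, adjusted p = 0.0117), an activity that also starts sterol synthesis, were lower. Against wild type on xylan 3 of the 25 were higher and 2 lower, beside 9.29% higher and 11.5% lower over all genes. Among the 3 was the thiolase NCU04796 (1.66, adjusted p = 0.0322, edgeR). Without A828V library 1, 2 or 3, 0 were called in either direction, beside 550, 776 and 540 of all genes. Between the deletion strain and wild type 0 of 25 passed the edgeR test. DESeq2 called 2 higher and 1 lower, beside 390 of all genes in either direction. Of the 25, 9 had an unadjusted p under 0.05, as had 1221 of all 8557 genes tested. Their median was 0.60, with 21 values above 0, against a median of 0.05 over all genes.

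Sterol synthesis, which also draws on acetyl-CoA, had 11 of 16 genes lower and 0 higher in A828V without carbon than on sucrose, with a median of -2.19. Over all genes 10.4% were lower and 8.39% higher. The squalene epoxidase gene NCU08280 averaged 19.8 ± 5.50 CPM (SD, n = 3) without carbon against 775 CPM on sucrose (-5.29, adjusted p = 0.0186, edgeR). erg-1 averaged 24.3 ± 11.5 CPM (SD, n = 3) without carbon against 580.0 CPM on sucrose (-4.58, adjusted p = 0.00419, edgeR). Against wild type on xylan 7 of the 16 were lower and 0 higher, with a median of -1.40, and 2 to 11 were lower with 1 library left out. Over all genes 11.5% were lower and 9.29% higher in that comparison. Of 20 genes of phospholipid and triacylglycerol synthesis, 2 were lower and 1 higher in A828V without carbon than on sucrose, with inl, the inositol-3-phosphate synthase gene, at 47.3 ± 15.5 CPM (SD, n = 3) against 1327 CPM (-4.81, adjusted p = 0.00926, edgeR). The phospholipid counts over sucrose were no larger as shares than those of all genes (10.4% lower and 8.39% higher). Between the deletion strain and wild type 0 genes of either list passed the edgeR test. At an unadjusted p under 0.05 there were 5 of the 16 and 4 of the 20, and 1221 of all 8557 genes tested. DESeq2 called 2 sterol genes lower and 1 phospholipid gene in each direction, beside 390 of all genes in either direction.

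Ribosomal protein genes followed the same order of group means as the synthase genes, but not the order of libraries within wild type. The 70 genes listed as cytosolic ribosomal proteins were taken by product name, and some names, such as L19 and L3, recur among them. They summed to 17996 to 27496 CPM in A828V without carbon, 27024 to 50469 CPM in the deletion strain, 46796 to 73556 CPM in wild type and 117046 CPM on sucrose. Within wild type their sum was highest in library 3, where cel-1 and cel-2 were lowest. Of the 70, 63 were lower in A828V without carbon than on sucrose and 1 was higher, against 10.4% lower and 8.39% higher over all genes. Against wild type on xylan 58 were lower and 1 higher, against 11.5% and 9.29% of all genes. Between the deletion strain and wild type edgeR called 0 of the 70. DESeq2 called 1 lower, beside 390 of all genes in either direction. Of the 70, 22 had an unadjusted p under 0.05, as had 1221 of all 8557 genes tested. The conidium markers con-6, con-8, con-10, eas and fl, all 5 detected in every library, summed to 19806 to 23367 CPM in A828V without carbon, 413 to 2047 CPM in the deletion strain, 228 to 2426 CPM in wild type and 609 CPM on sucrose. Their sum was thus high in A828V without carbon. It overlapped between the deletion strain and wild type, where cel-1 and cel-2 did not. Only the sum was read, not each marker on its own. The part of spore-forming cells and of a lower share of growth-related transcripts in the levels of cel-1, cel-2 and NCU08535 was not tested.

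Genes were ranked by how much their levels resembled the mean log2 CPM of the 3 genes over all 11 libraries, among 6613 with at least 10 CPM on average. The first were NCU05551, a hypothetical protein (Pearson r = 0.986), and NCU06786, named as 50S ribosomal protein L30 (0.982). Next were NCU00225, a hypothetical protein (0.978), and NCU07380, named for translation initiation factor 3 (0.978). Over the 7 libraries on xylan alone the first genes were NCU01328, transketolase (0.982), NCU02056, named as a salicylaldehyde dehydrogenase (0.98), and NCU04423, a hypothetical protein (0.978). NCU07380 and arp-4, named as actin, were the 2 genes among the first 10 in both orders. Pearson r takes no account of the size of a change. NCU06786 averaged 32.16 CPM in A828V without carbon and had 92.85 CPM on sucrose, where cel-1 had 5.64 and 604 CPM. The libraries of a group share strain and medium, so these values describe a profile over few conditions and carry no p.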

How the data were processed

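Per the submitters' processing notes, the tools were TopHat2 2.04, HTSeq 0.6, Cufflinks 2.02 and Cuffdiff 2.02. Their settings, the genome build and whether strand was kept: not given in the sources used here. Counts are the raw reads per gene that the authors deposited, 1 table a library, with 5 entries that name no gene and hold 6.34% to 29.57% of a table's summed counts, which were left out. FPKM came from the authors' deposited table of each library. Per the file headers, the authors' comparison tables list 9600 genes with group means in FPKM, log2 ratios and adjusted p-values. Their 12 single-library columns were not used.

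Counts were tested with edgeR 4.0.16 (R 4.3.3; TMM, filterByExpr with a count minimum of 10, quasi-likelihood F-test, 2-sided, Benjamini-Hochberg over 8557 genes, threshold 0.05). The fit held all 11 libraries, with 7 residual degrees of freedom and a common biological coefficient of variation of 0.411. The fit was tested on simulated data. Alternatives were DESeq2 1.42.0 and limma 3.58.1 on log2(FPKM + 1) or log2(FPKM + 0.1), other scaling, no filter, 2 groups alone, each library left out, and a replicate block. No library pair agreed within sampling noise (lowest chi-square per degree of freedom 19.0).

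The members, lists and tests were chosen with earlier results of these data known. Lists were made from product names, with 6 genes left out whose name gave another function. Named genes were the 3 members, the 4 called genes of each list with the largest fold change and at least 10 CPM, and the 10 genes most like the members; NCU01092, NCU03332, NCU02408, NCU06694, the citrate lyase genes and the genes named beside ods in the deletion comparison were chosen after their values were seen. Same-numbered deletion and wild-type libraries deviated together (r = 0.69, 0.32 and 0.30 for numbers 1, 2 and 3), so these numbers may mark pairs. Each gene was centred on its mean over libraries 1 to 3 of a group. The values for numbers 2 and 3 are therefore not independent of that for number 1. Libraries of unlike number were not compared in this way. The main fit did not use the numbers, and fits with the number as a block are given as alternatives. A828V numbers did not pair with wild type (r = -0.10, -0.23 and -0.17) or with the deletion strain. Symbols came from RefSeq (assembly NC12), to which 9757 loci were matched; 9750 had the RefSeq gene's length. Gene sequences were not used here.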

Additional observations from a re-analysis of the deposited data

Results flagged for a closer look

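NCU08535, the acetyl-CoA carboxylase gene, had 14.1 FPKM in deletion library 1, against 4.53, 4.54 and 5.65 FPKM in deletion libraries 2, 3 and 4. The gap between library 1 and the next value took up 0.883 of the group's range, above Dixon's 95% critical value for 4 samples. On the CPM scale the same gap took up 0.637 of the range, below that value. It was the only flag among 6 sets of values looked at, the 3 genes in CPM and in FPKM in the deletion libraries. Chance flags about 1 in 20 such sets, and these 6 share the same 4 libraries, so they are not independent. The 2 citrate lyase genes stood high in the same library.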

How the results depend on the processing

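All 159 alternative values of the 3 genes kept their sign. In the order cel-1, cel-2, NCU08535, limma on log2(FPKM + 1) gave -5.18, -4.80 and -1.99 for A828V without carbon over sucrose, -4.30, -3.69 and -1.04 over wild type on xylan, and -1.98, -1.92 and -1.06 for the deletion strain over wild type. With a pseudocount of 0.1 they were -5.99, -5.27 and -2.13, then -5.09, -4.13 and -1.10, then -2.08, -2.01 and -1.14. Leaving out both xylan libraries numbered 1 gave -4.98, -3.94 and -0.58 over wild type on xylan. The cause of these shifts was not tested. DESeq2 left the folds of cel-1 and cel-2 in the deletion strain near the same (-2.43 and -2.42) and called both.

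Leaving out 1 library at a time gave, over sucrose, -6.88 to -6.66, -6.04 to -5.84 and -3.07 to -2.84. Over wild type on xylan it gave -6.35 to -4.98, -5.42 to -3.94 and -2.85 to -0.58. For the deletion strain it gave -2.86 to -1.52, -2.87 to -1.41 and -2.32 to -0.06, with wild-type library 1 missing at the value nearest 0.

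The deletion comparison called 51 genes, but 390 with DESeq2, 32 with the 2 groups alone, 98 with the block on xylan libraries 1 to 3 alone, and 33 to 70 with 1 library left out. A828V without carbon gave 1612 calls over sucrose (5266 with the 2 groups alone, 722 to 2204 with 1 library left out) and 1778 over wild type (3013, and 540 to 2461). The lowest counts came without A828V libraries 1, 2 or 3 (726, 928 and 722 over sucrose; 550, 776 and 540 over wild type); without wild-type library 1 there were 1000 over wild type. Lower sterol genes over sucrose numbered 5, 6 and 5, not 11, without A828V libraries 1, 2 and 3. Over wild type they numbered 2, 5 and 2, not 7, without A828V libraries 1, 2 and 3, 4 without wild-type library 1, and 10, 10 and 11 without deletion libraries 1, 2 and 4. Lower ribosomal protein genes over wild type numbered 13 and 17, not 58, without A828V libraries 1 and 3. Lower fatty acid synthesis genes, 4 over sucrose and 5 over wild type, numbered 14 and 7 with the 2 groups alone, and 4 to 5 and 4 to 6 with 1 library left out.

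With the replicate number as a block, libraries 1 to 3 of 3 groups gave -2.30 (adjusted p = 0.139), -2.22 (0.146) and -1.48 (0.26) for the deletion strain over wild type, and ended the call of ods. The block on xylan libraries 1 to 3 alone, chosen after seeing the data like the setting without both libraries numbered 1, gave -2.18 (adjusted p = 0.117), -2.07 (0.133) and -1.25 (0.17) for the deletion strain. With the block, A828V without carbon over wild type on xylan gave -5.74, -4.75 and -1.60. No paired analysis was possible because sucrose has 1 unnumbered library in the comparison over sucrose. FPKM of cel-1 near 1 rests on 83 to 140 reads, and 1 library on sucrose limits that comparison.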
